A study of Homo sapiens with 18 samples.

Results

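The genes described are the 6 IGF-binding proteins IGFBP2 to IGFBP7, the ligands IGF1 and IGF2 and the receptor IGF1R, chosen by gene symbol in the table of raw counts. All 9 were found among 57500 genes, and 8 of them were among the 16994 genes with enough counts to be tested. IGF1 did not pass the filter on low counts, and IGFBP2 passed with 3 to 35 counts per library.

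RNA-seq was performed on IMR90 cells, an established line of human lung fibroblasts, in 18 libraries, 3 from each of 6 groups. The groups were proliferating cells (Prol), cells made senescent by X-ray irradiation (Sen (IR)), irradiated cells cleared of mitochondria with CCCP (Sen (IR) + CCCP), and cleared cells that also received acetate, mtDNA or both. CCCP is an uncoupler that collapses the mitochondrial membrane potential, and the cells cleared in this way are described in the study's methods as engineered so that it triggers the removal of their mitochondria. The labels do not say whether Prol and Sen (IR) cells carried the same construct. According to the methods, the irradiation dose was 20 Gy, CCCP was given for 48 h from day 1, 20 mM sodium acetate was given from day 3, mtDNA was transfected on day 10 and cells were collected on day 12 after irradiation. Proliferating cells given CCCP, and irradiated cells given CCCP without clearance of their mitochondria, are not labelled among the groups. The removal of mitochondria and exposure to CCCP therefore cannot be told apart. No mock transfection is labelled either, so mtDNA and the act of transfection cannot be told apart. The labels number the replicates without naming separate cultures, and the study describes its replicates as independent experiments.

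Insulin-like growth factors are secreted peptides that signal through the receptor tyrosine kinase IGF1R to promote growth and survival. In the fluid around cells they are held by a family of secreted binding proteins, which lengthen their life and limit or deliver them to the receptor. IGFBP7 binds IGFs weakly and is also called a related protein rather than a classical member. Binding proteins are cut by proteases such as the pappalysin PAPPA, which frees the ligand, and several of them, IGFBP3, IGFBP5 and IGFBP7 among them, are familiar secreted products of senescent fibroblasts.

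Libraries held 24624886 to 46224280 counts on genes. All 9 fibroblast markers were detected in every group, and their summed level fell from 37840–41644 counts scaled per library total (CPM) in Prol to 7239–7542 in Sen (IR) + CCCP, while endothelial and leukocyte markers summed to at most 2.89 CPM in any library, CDH5, CDH1, PECAM1 and PTPRC were at or near 0, and the 4 epithelial markers, mostly KRT8 and KRT18, summed to 26.1–106 CPM. Over all libraries the single fibroblast markers ranged unequally. COL1A1 was at 515–16619 CPM, COL1A2 at 635–14430, COL3A1 at 84.9–2849, DCN at 172–1248 and LUM at 22.2–223. THY1 was at 97.4–412 CPM, PDGFRB at 56.0–317, VIM at 2784–4795 and FBN1 at 605–932. The part of the fall of the fibroblast markers in the results below was not tested. Within a single cell line, bulk libraries cannot tell a shift between cell states from less RNA per cell. The proliferation marker MKI67 was at 58.3–60.2 CPM in Prol, 13.8–17.8 in Sen (IR), 28.9–32.4 in Sen (IR) + CCCP and 2.73–3.57 with acetate, and its part in the results was not tested either. The 13 protein-coding genes of mtDNA took 1.75–2.64% of counts in Sen (IR) and 0.114–0.136% in Sen (IR) + CCCP (difference of −1.98 percentage points, exact two-sided permutation p = 0.1, the smallest that 3 libraries against 3 allow). A pair of libraries stood apart from their groups, Sen (IR) replicate 3 and acetate + mtDNA replicate 2. The chi-square per gene of the 4 pairs with one of them was 19.6 to 25.4, against 2.67 to 7.10 for the 14 other pairs within a group. The interferon-induced gene IFIT1 was at 847 CPM in that acetate + mtDNA library and at 227 in the other 2.

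Levels are given as TPM (a level per transcript length), which the authors scaled by gene length and by library so that genes can be compared with each other. Differences between groups were tested on the counts with edgeR's quasi-likelihood test, with Benjamini-Hochberg adjustment over all genes tested, and a gene was called at an adjusted p under 0.05. The scales of TPM and counts did not move together: 1 CPM corresponded to 1.42 times as much TPM in Sen (IR) + CCCP as in Prol, and to 1.30 to 1.35 times as much in the treated groups. The tests on counts and the CPM carry the TMM scaling, and the TPM do not. On log2(TPM + 1) the median of all genes for Sen (IR) + CCCP over Sen (IR) was 0.35, against 0.03 on the counts, and 9720 genes were called higher and 2608 lower, against 5776 and 5312 on the counts. For both treatments over Sen (IR) + CCCP that median was −0.13, with 3891 genes higher and 6917 lower, against 5146 and 5341. Changes below are those of the counts unless TPM is named, and the order of groups can differ between the scales.

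**Figure D1:**
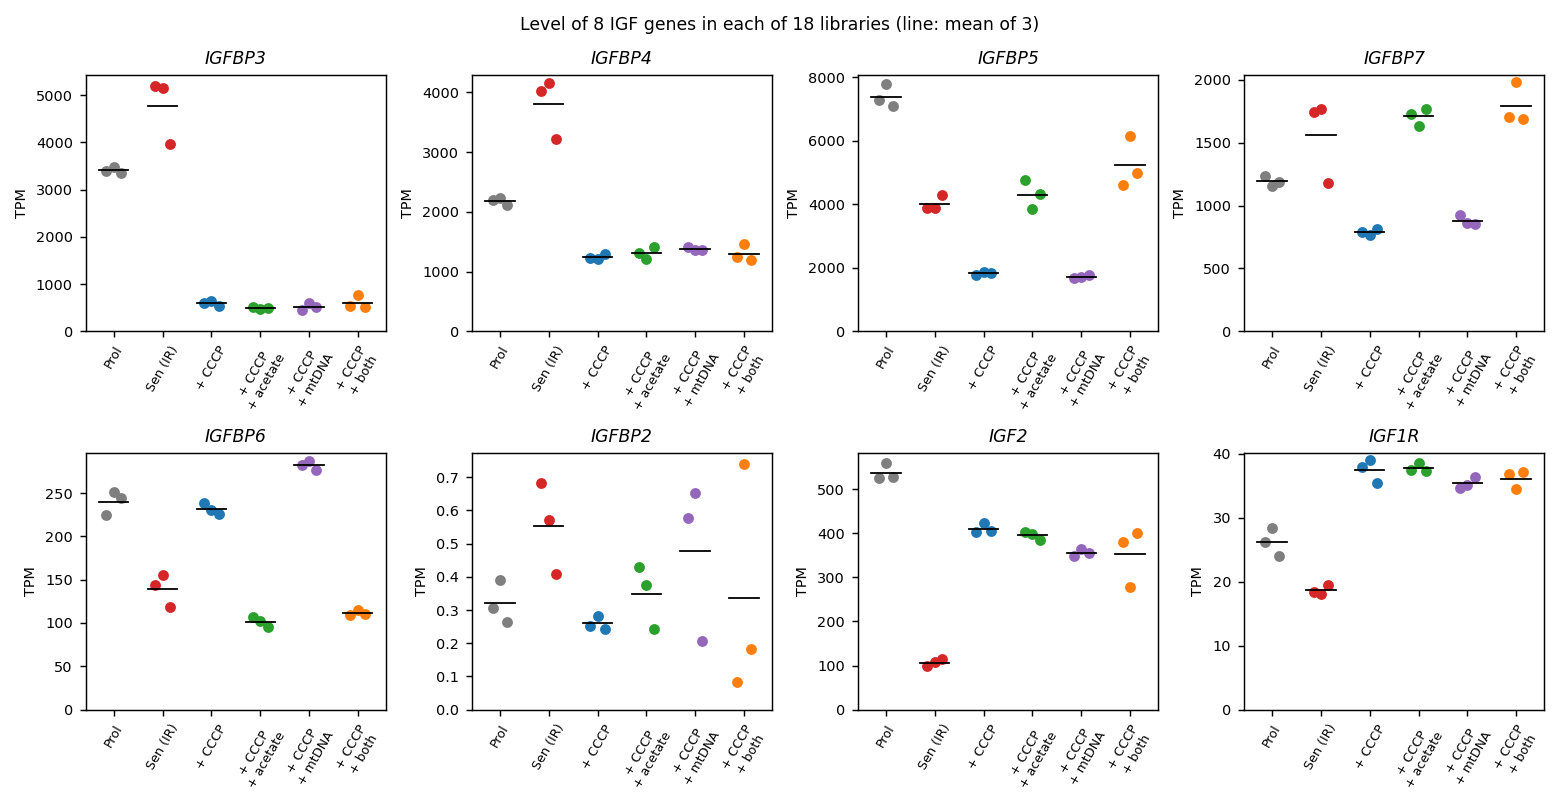
TPM of 8 IGF genes in each of the 18 libraries, by group, with the mean of 3 libraries as a line; each panel has its own linear axis from 0. IGFBP3 and IGFBP4 were low in all 4 CCCP groups, IGFBP5 and IGFBP7 were high again in the groups with acetate, and IGF2 was lowest in Sen (IR).

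The transcript pool of the IGF-binding proteins had overlapping sizes in senescent and proliferating cells but was made up differently, and was smaller after clearance. The TPM of the 6 genes summed to 14418 ± 457 (SD, n = 3) in Prol and 14285 ± 1310 in Sen (IR). In Sen (IR) + CCCP the sum was 4683 ± 45.9, in cells given mtDNA 4780 ± 55.6, in cells given acetate 7922 ± 590 and in cells given both 9048 ± 1241. Every library of the CCCP groups lay below every library of Prol and Sen (IR), and every library with acetate lay above every one without it among the CCCP groups. IGFBP5 held 51.3 ± 0.818% of this sum in Prol, 28.4 ± 4.50% in Sen (IR), 39.1 ± 0.513% in Sen (IR) + CCCP and 54.3 ± 1.99% with acetate. IGFBP3 held 23.7 ± 0.282% in Prol, 33.3 ± 1.93% in Sen (IR), 12.6 ± 1.31% in Sen (IR) + CCCP and 6.25 ± 0.269% with acetate. The composition with both treatments, 57.9 ± 1.46% IGFBP5 and 6.60 ± 0.621% IGFBP3, was close to that with acetate alone. These sums are descriptions, and no test was made of them.

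**Figure D2:**
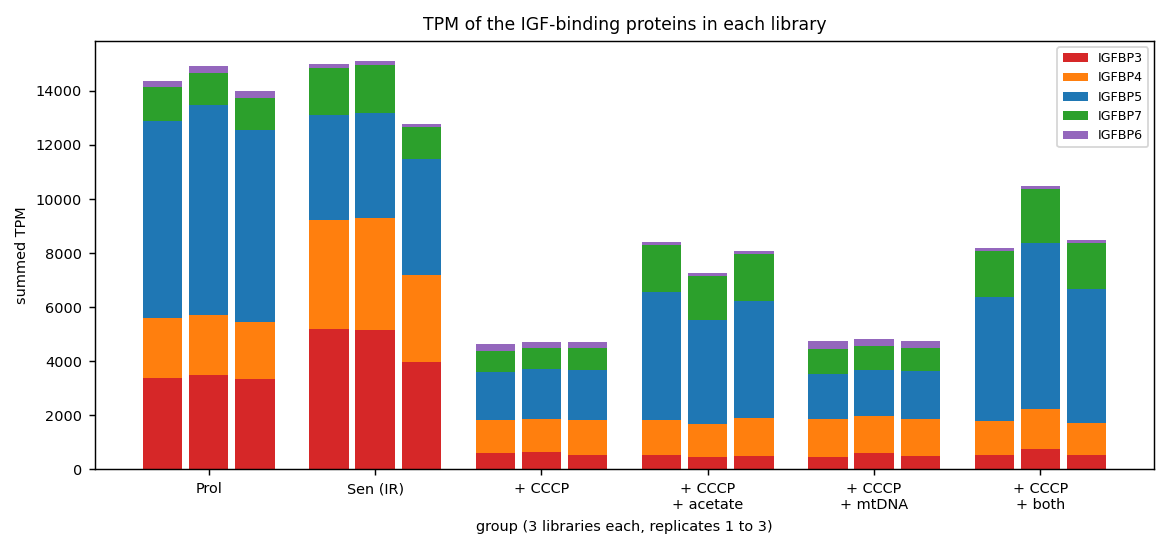
Summed TPM of IGFBP3, IGFBP4, IGFBP5, IGFBP7 and IGFBP6 in each library, stacked from below, in the order of replicates 1 to 3 within each group; IGFBP2 is too low to show. The bars of Prol and Sen (IR) reach 12774 to 15100, those of CCCP and of CCCP with mtDNA 4631 to 4843, and those with acetate 7270 to 10471.

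Senescence raised IGFBP4, IGFBP3 and IGFBP7 and lowered IGF2, IGFBP5, IGFBP6 and IGF1R. Of the 8 genes tested, 7 were called for Sen (IR) over Prol, 3 higher and 4 lower, where 56.7% of all genes tested were called. For Sen (IR) + CCCP over Sen (IR), 8 of 8 were called, 3 higher and 5 lower, where 65.2% of all genes were called. Their median log2 change was −1.47, against 0.03 over all genes tested. Of the 6 binding proteins 5 were lower, where 31.3% of all genes tested were, and the call of IGFBP2 rested on few counts. This comparison and that of Sen (IR) with Prol share the Sen (IR) libraries. Acetate given to cleared cells changed 3 of 8, IGFBP5 and IGFBP7 upwards and IGFBP6 downwards (57.1% of all genes), and mtDNA changed 1 of 8, IGFBP6 upwards (18.1% of all genes). Both together changed 4 of 8, 3 higher and 1 lower (61.7% of all genes). The last 3 comparisons share the Sen (IR) + CCCP libraries. Over mtDNA alone, both changed 3 of 8, 2 higher and 1 lower (57.4% of all genes, 27.4% higher and 29.9% lower).

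**Figure D3:**
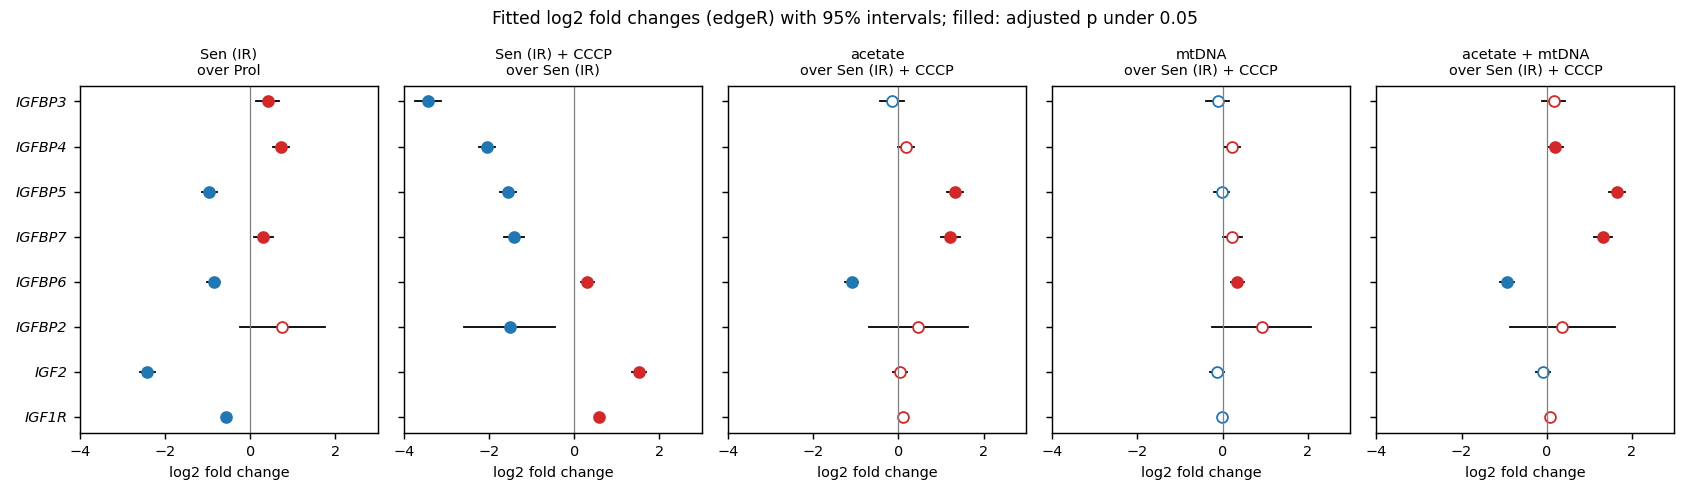
Fitted log2 fold changes of the 8 genes in 5 comparisons, with 95% intervals as lines; filled points have an adjusted p under 0.05, red points are higher and blue points lower in the first-named group. IGFBP3 fell by 3.44 with CCCP and IGF2 rose by 1.52; with acetate, IGFBP5 and IGFBP7 lie to the right of 0 and IGFBP6 to the left.

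IGFBP3, the main carrier of IGFs in serum, lies on chromosome 7 (chr7:45912245-45921874, minus strand, GRCh38), beside IGFBP1. Its TPM was 3392, 3485 and 3352 in Prol, 5197, 5142 and 3969 in Sen (IR) and 598, 647 and 525 in Sen (IR) + CCCP. It was 518, 477 and 489 with acetate, 445, 606 and 504 with mtDNA and 524, 765 and 519 with both. Sen (IR) lay above Prol without overlap, the 4 CCCP groups lay far below both, and among those 4 the acetate libraries were, in TPM, below those of Sen (IR) + CCCP and of both, while the mtDNA libraries overlapped all others. In CPM the acetate libraries (431 to 478) overlapped those of Sen (IR) + CCCP (448 to 554). IGFBP3 rose with senescence by 0.41 ± 0.13 (SE) on the log2 scale (edgeR adjusted p = 0.012), a rise that missed the threshold without Sen (IR) replicate 1 (0.33, adjusted p = 0.0634) or replicate 2 (0.32, adjusted p = 0.0708) and was 0.53 without the 2 libraries that stood apart. With CCCP it was 10.9-fold lower than in Sen (IR) (log2 change −3.44 ± 0.14, adjusted p = 8.88e-15), the largest change of any of the 8 genes in that comparison, and on log2(TPM + 1) the change was −3.01 ± 0.14. It ranked 13th to 22nd of all genes by TPM in Sen (IR) libraries and 188th to 267th in Sen (IR) + CCCP. Neither acetate (−0.16, 95% interval −0.43 to 0.12) nor mtDNA (−0.11, −0.39 to 0.16) nor both (0.17, −0.11 to 0.44) gave a call against Sen (IR) + CCCP, and the upper ends of all 3 intervals lie far under the size of its fall with CCCP. With no filter, acetate was called lower (−0.15, edgeR adjusted p = 0.0111) and both higher (0.16, 0.00976). Acetate was also called lower in a fit of the compared groups alone (−0.17, 0.00661) and without the 2 libraries that stood apart (−0.16, 0.0487). Without acetate + mtDNA replicate 2, the library at 765 TPM, and Sen (IR) replicate 3, the change with both was −0.06 (adjusted p = 0.517). The log2 change of the acetate group over Sen (IR) was −3.60 ± 0.15 (adjusted p = 3.72e-15).

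IGFBP4, a binding protein that holds IGFs away from the receptor until PAPPA cuts it, lies on chromosome 17 (chr17:40443450-40457725, plus strand). Its TPM was 2198, 2226 and 2112 in Prol, 4029, 4152 and 3219 in Sen (IR), and 1221, 1209 and 1293 in Sen (IR) + CCCP. It was 1303, 1215 and 1417 with acetate, 1407, 1363 and 1363 with mtDNA and 1252, 1464 and 1187 with both. Sen (IR) lay above every other library and the 4 CCCP groups lay below Prol, within 1187 to 1464. It rose with senescence by 0.72 ± 0.09 (edgeR adjusted p = 3.04e-07) and was 4.12-fold lower with CCCP (log2 change −2.04 ± 0.09, adjusted p = 1.78e-14). Against Sen (IR) + CCCP the change was 0.18 ± 0.09 with acetate (adjusted p = 0.0851), 0.22 ± 0.09 with mtDNA (adjusted p = 0.0803) and 0.20 ± 0.09 with both (adjusted p = 0.0483). With no filter, acetate (0.18, edgeR adjusted p = 0.0034) and mtDNA (0.21, 0.0018) were each called. They were also called in a fit of the compared groups alone (0.17, 0.00277 and 0.21, 0.000264). The same held without the 2 libraries that stood apart (0.18, 0.000488 and 0.22, 0.000176). The call for both was lost without acetate + mtDNA replicate 2 (0.11, adjusted p = 0.249), without Sen (IR) + CCCP replicate 1 or 2, and with the replicate number as a block (adjusted p = 0.0539). All 4 CCCP groups stayed below Prol by 1.09 to 1.32 on the log2 scale.

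IGFBP5, the binding protein with the highest level in proliferating cells and a known binder of the extracellular matrix, lies on chromosome 2 (chr2:216672105-216695549, minus strand), next to IGFBP2. Its TPM was 7301, 7783 and 7103 in Prol, 3870, 3886 and 4289 in Sen (IR) and 1786, 1867 and 1844 in Sen (IR) + CCCP. It was 4760, 3845 and 4311 with acetate, 1681, 1723 and 1760 with mtDNA and 4599, 6145 and 4984 with both. The CCCP and mtDNA libraries were the lowest, Prol the highest, and the libraries with acetate, at 3845 to 6145, overlapped those of Sen (IR). It fell with senescence by 0.96 ± 0.09 (edgeR adjusted p = 3.65e-09) and again with CCCP by 1.56 ± 0.09 (adjusted p = 8.67e-13). Acetate raised it 2.52-fold over Sen (IR) + CCCP (log2 change 1.33 ± 0.09, adjusted p = 1.93e-11), the change with mtDNA was −0.02 (95% interval −0.19 to 0.16), and both raised it 3.14-fold (1.65 ± 0.09, adjusted p = 5.47e-13). With acetate it ranked 7th of all genes by TPM in each library and with both 4th to 7th, against 30th to 32nd in Sen (IR) + CCCP. On the counts the acetate group lay 0.23 ± 0.09 below Sen (IR) (adjusted p = 0.0242), while its mean TPM was higher, 4306 against 4015. The group with both was 0.32 ± 0.09 above acetate alone (adjusted p = 0.0162), a call that was lost when acetate + mtDNA replicate 2 (0.17, adjusted p = 0.0959), acetate replicate 2 (0.24, adjusted p = 0.109) or acetate replicate 3 (0.32, adjusted p = 0.0516) was left out.

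IGFBP7, a secreted protein with weak affinity for IGFs, lies on chromosome 4 (chr4:57030773-57110385, minus strand). Its TPM was 1237, 1159 and 1186 in Prol, 1741, 1764 and 1178 in Sen (IR) and 787, 763 and 813 in Sen (IR) + CCCP. It was 1730, 1631 and 1765 with acetate, 924, 863 and 852 with mtDNA and 1703, 1981 and 1687 with both. Of the Sen (IR) libraries, replicate 3 lay within the range of Prol in TPM and the other 2 above it. In CPM Sen (IR) replicate 3, at 562, lay below every Prol library (581 to 638), and the other 2, at 849 and 862, lay above. The rise with senescence was 0.31 ± 0.11 (edgeR adjusted p = 0.0167); it missed the threshold without Sen (IR) replicate 1 (0.21, adjusted p = 0.121), Sen (IR) replicate 2 (0.18, adjusted p = 0.166) or Prol replicate 2 (0.27, adjusted p = 0.073), and was 0.48 (adjusted p = 2.11e-10) without the 2 libraries that stood apart. With CCCP it was 2.67-fold lower (−1.42 ± 0.11, adjusted p = 1.31e-10). Acetate raised it by 1.22 ± 0.11 (adjusted p = 2.65e-09) and both by 1.32 ± 0.11 (adjusted p = 6.33e-10), and the change with mtDNA was 0.23 ± 0.11 (adjusted p = 0.145). The change with mtDNA was called with no filter (0.22, adjusted p = 0.00172), in a fit of the compared groups alone (0.22, adjusted p = 0.000661) and without the 2 libraries that stood apart (0.23, adjusted p = 6.34e-05). On the counts the acetate group gave no call against Sen (IR) (−0.20, 95% interval −0.42 to 0.02, adjusted p = 0.0999) or Prol (0.11, −0.11 to 0.33, adjusted p = 0.382). The order depended on the scale: acetate and both were at 659 and 708 CPM, below Sen (IR) at 758, but at 1709 and 1790 TPM, above Sen (IR) at 1561. In TPM every acetate library lay above every Prol library, whereas in CPM these groups overlapped.

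To show the sequence at their starts, the 250 bases before the start of IGFBP4 and IGFBP5 are given, a pair of binding proteins that both fell with CCCP. With acetate IGFBP5 was called higher by 1.33, while IGFBP4 changed by 0.18, called only in some of the alternatives. They are RefSeq sequences on GRCh38.p14, read 5′ to 3′ on the strand of the gene, and these starts are also those of GENCODE 44. Capitals mark matches to the 5 motifs searched on both strands.
IGFBP4 (chr17:40443200-40443449, plus strand): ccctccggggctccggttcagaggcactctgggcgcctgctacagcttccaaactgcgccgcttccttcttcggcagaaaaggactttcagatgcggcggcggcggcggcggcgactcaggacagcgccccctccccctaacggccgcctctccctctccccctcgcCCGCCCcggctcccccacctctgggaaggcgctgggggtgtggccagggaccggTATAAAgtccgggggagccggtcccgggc
IGFBP5 (chr2:216695550-216695799, minus strand): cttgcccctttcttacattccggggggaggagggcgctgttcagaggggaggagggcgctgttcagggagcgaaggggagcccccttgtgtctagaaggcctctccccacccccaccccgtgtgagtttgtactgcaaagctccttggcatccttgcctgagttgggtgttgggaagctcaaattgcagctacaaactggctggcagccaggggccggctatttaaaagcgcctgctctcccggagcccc
The motifs were the TATA box (TATAAA), the GC box (GGGCGG), the CCAAT box (CCAAT), the AP-1 site (TGANTCA) and the core C/EBP site (TTGCNNAA). IGFBP4 had a TATA box at −29 to −24 and a GC box on the other strand at −83 to −78, counted back from the first transcribed base, and IGFBP5 had no match to any of the 5. Of 35116 promoters of this length, 10.7% held the TATA box, 42.6% the GC box, 32.0% the CCAAT box, 6.57% the AP-1 site and 9.05% the C/EBP site. IGFBP3 and IGF1R had 2 GC boxes each and IGFBP6 had 1 in the same table. IGFBP2 had 1 GC box at each of its start sites 1 and 2 and 1 CCAAT box at start site 3. IGF1 had no match at its start sites 1 and 2. IGFBP7 and IGF2 have no entry in that table. Only the letters given were searched, so a variant of a motif was not counted in any promoter. A match is a description of letters and not of a bound factor.

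IGFBP6, which prefers IGF2 over IGF1, lies on chromosome 12 (chr12:53097436-53102345, plus strand), and changed in the opposite direction to IGFBP5 and IGFBP7 in the comparisons of acetate. Its TPM was 225, 251 and 244 in Prol, 144, 156 and 118 in Sen (IR) and 239, 231 and 226 in Sen (IR) + CCCP. It was 107, 102 and 95.6 with acetate, 282, 287 and 277 with mtDNA and 109, 115 and 110 with both. The groups with acetate were the lowest and the mtDNA group the highest of the CCCP groups, without overlap. It fell with senescence by 0.86 ± 0.07 (edgeR adjusted p = 2.25e-09) and rose with CCCP by 0.31 ± 0.08 on the counts (adjusted p = 0.00119) and by 0.74 ± 0.08 on log2(TPM + 1). Acetate made it 2.14-fold lower than in Sen (IR) + CCCP (−1.10 ± 0.08, adjusted p = 6.32e-11), mtDNA made it 1.28-fold higher (0.35 ± 0.07, adjusted p = 0.00169), and with both it was 1.90-fold lower (−0.93 ± 0.08, adjusted p = 9.83e-10). The order of the mtDNA group and Prol depended on the scale: on the counts the mtDNA group was lower, 70.8 against 81.5 CPM (adjusted p = 0.0178), and in TPM it was higher, 282 against 240.

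IGFBP2, on chromosome 2 (chr2:216632828-216664436, plus strand), was at 0.0845 to 0.741 TPM in all libraries, far under the other binding proteins. Its mean was 0.320 TPM in Prol, 0.555 in Sen (IR) and 0.260 in Sen (IR) + CCCP. The fall with CCCP was called (−1.52 ± 0.52, edgeR adjusted p = 0.0133) but rested on 67 counts in 3 libraries against 24, and it was lost without Sen (IR) replicate 1 (−1.31, adjusted p = 0.0678) and in limma on log2(TPM + 1) (adjusted p = 0.0821). The other comparisons gave no call, and at this depth intervals of 1 or more log2 units to either side left its level in the treated groups undetermined.

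IGF2, the fetal growth factor of the family, was the ligand these cells transcribed, and lies on chromosome 11 (chr11:2129112-2158391, minus strand). Its TPM was 526, 560 and 529 in Prol, 99.0, 107 and 114 in Sen (IR) and 403, 424 and 405 in Sen (IR) + CCCP. It was 403, 399 and 385 with acetate, 348, 365 and 355 with mtDNA and 381, 279 and 400 with both. The Sen (IR) libraries were the lowest and Prol the highest, and neither overlapped with any other group. IGF2 was 5.33-fold lower in Sen (IR) than in Prol (log2 change −2.42 ± 0.08, edgeR adjusted p = 4.37e-16), the largest change with senescence among the 8 genes, and rose 2.86-fold with CCCP (1.52 ± 0.08, adjusted p = 3.29e-13). Sen (IR) + CCCP stayed 0.90 ± 0.08 below Prol (adjusted p = 1.05e-09). Neither acetate (0.04, 95% interval −0.12 to 0.21) nor mtDNA (−0.13, −0.29 to 0.03) nor both (−0.09, −0.25 to 0.08) gave a call against Sen (IR) + CCCP. The low value with both, 279 TPM, was that of acetate + mtDNA replicate 2, and without the 2 libraries that stood apart the change with mtDNA was called (−0.13, adjusted p = 0.00555). That change was also called in a fit of the compared groups alone (−0.15, edgeR adjusted p = 0.00353). The change with both was called in limma on log2(TPM + 1) (−0.23, adjusted p = 0.0394). The methods say that strand was used in counting where a library kept it, but not whether these libraries did. The antisense transcript IGF2-AS had 0 to 39 counts per library, against 4417 to 34297 for IGF2, and the readthrough gene INS-IGF2, which shares exons with IGF2, had 0 in all 18, so how reads on the shared exons were assigned is not known and the level of IGF2 is uncertain.

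IGF1, the ligand of the growth hormone axis, on chromosome 12 (chr12:102395874-102481744, minus strand), was hardly detected. It had 8 counts over all 18 libraries, with 14 libraries at 0, and no group had more than 4. Prol and the mtDNA group had 0 counts, which allows up to 0.0289 and 0.037 CPM, taking 3 counts over the group as the limit (counting error only). No difference between groups was detectable at this depth.

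IGF1R, the tyrosine kinase receptor of both ligands, lies on chromosome 15 (chr15:98648539-98964530, plus strand) and was lowest in Sen (IR), as IGF2 was. Its TPM was 26.2, 28.4 and 24.0 in Prol, 18.4, 18 and 19.5 in Sen (IR) and 37.9, 39.1 and 35.5 in Sen (IR) + CCCP. It was 37.5, 38.6 and 37.3 with acetate, 34.7, 35.2 and 36.3 with mtDNA and 36.8, 34.5 and 37.1 with both. The libraries of Sen (IR) lay below all others in TPM and on the counts. IGF1R fell with senescence by 0.57 ± 0.05 (edgeR adjusted p = 2.56e-09) and rose with CCCP by 0.58 ± 0.05 (adjusted p = 8.80e-10), and on log2(TPM + 1) by 0.97 ± 0.06. Whether it stood above the level of proliferating cells depended on the scale, since Sen (IR) + CCCP and Prol were at 94.5 ± 4.66 and 93.9 ± 6.10 CPM (log2 change 0.01, 95% interval −0.09 to 0.11) but at 37.5 and 26.2 TPM. No treatment of cleared cells gave a call, with changes of 0.11 ± 0.05 for acetate (adjusted p = 0.062), −0.01 ± 0.05 for mtDNA (adjusted p = 0.929) and 0.08 ± 0.05 for both (adjusted p = 0.175). The change with acetate was called with at least 10 counts in every library (0.11, edgeR adjusted p = 0.0479) and in a fit of the compared groups alone (0.09, 0.0414). It was called without the 2 libraries that stood apart too (0.11, 0.0276).

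The design crosses acetate with mtDNA in cleared cells, which allows the change with acetate to be read without and with mtDNA in separate libraries. IGFBP5 rose by 1.33 ± 0.09 without and by 1.67 ± 0.09 with mtDNA, IGFBP7 by 1.22 ± 0.11 and 1.09 ± 0.11, and IGFBP6 fell by 1.10 ± 0.08 and 1.28 ± 0.08. These 3 were the genes called in either comparison, where 57.1% and 57.4% of all genes were called. IGFBP3, IGFBP4, IGF2 and IGF1R lay between −0.16 and 0.28 in both. The change with mtDNA on top of acetate gave 1 call of 8, the IGFBP5 result above (12.6% of all genes, 6.57% higher and 6.0% lower). In the test of the interaction, the departure from additive log2 changes, edgeR called 0 of 8 (0.659% of all genes, 0.0765% higher and 0.583% lower), DESeq2's Wald test called 0 of 8 too, with 134 of all genes higher and 139 lower against 13 and 99 in edgeR, and 2 had an unadjusted p under 0.05, IGFBP5 (0.34, 95% interval 0.09 to 0.59, adjusted p = 0.257) and IGFBP3 (0.44, 0.05 to 0.83, adjusted p = 0.362). Without the 2 libraries that stood apart 2 others were called, IGFBP4 (−0.31, adjusted p = 0.00233) and IGFBP7 (−0.22, adjusted p = 0.0243). With no filter the interaction was called for IGFBP3 (0.44, edgeR adjusted p = 4.71e-07) and IGFBP5 (0.34, 8.78e-05). IGFBP3 was then also called for both over acetate (0.31, edgeR adjusted p = 1.16e-07) and for both over mtDNA (0.28, 2.66e-07).

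**Figure D4:**
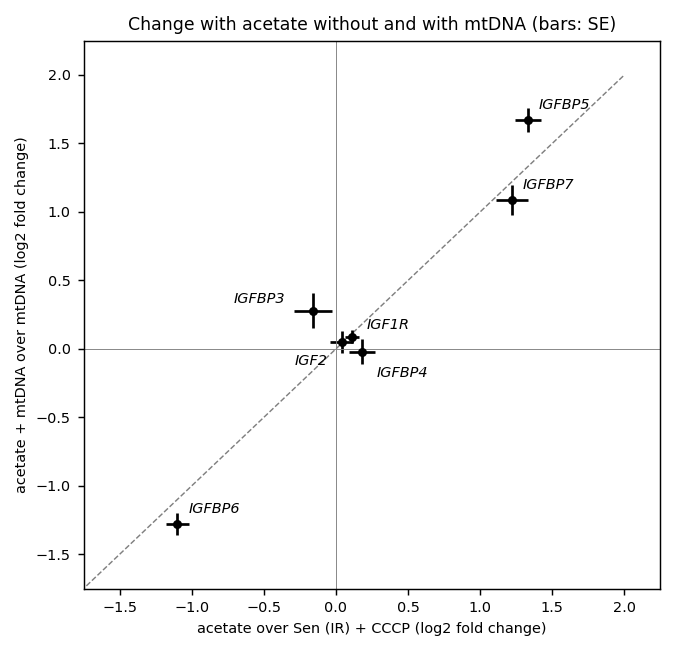
The log2 fold change with acetate in cleared cells without mtDNA (horizontal) and with mtDNA (vertical), for 7 IGF genes (IGFBP2 is left out for its low counts), with SE bars; the dashed line marks equal change. IGFBP5 and IGFBP7 lie at the upper right and IGFBP6 at the lower left, and the other 4 lie near 0 on both axes.

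Of 29 other genes of the IGF pathway, 25 passed the filter; IGFALS, IGFBPL1, GRB14 and H19 did not. For Sen (IR) over Prol 8 were called higher and 14 lower, where 26.7% and 29.9% of all genes were, and for Sen (IR) + CCCP over Sen (IR) 12 higher and 8 lower, where 34.0% and 31.3% were. PAPPA, the pappalysin that cuts IGFBP4, rose 3.54-fold (1.82 ± 0.07, edgeR adjusted p = 9.63e-16), from 69.5 to 246 CPM, and FOXO1, a transcription factor held in check by insulin and IGF signalling, rose by 1.80 ± 0.55 (adjusted p = 0.00822) at under 1 CPM, a call not made on log2(TPM + 1) (adjusted p = 0.206). HTRA1, a serine protease that cuts IGFBPs, fell by 0.78 ± 0.07 (adjusted p = 7.40e-09).

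After clearance ADAM12, a metalloprotease of IGFBP3 and IGFBP5, fell by 2.18 ± 0.09 (edgeR adjusted p = 1.00e-14) and STC2, a stanniocalcin that inhibits pappalysins, by 0.87 ± 0.07 (adjusted p = 1.08e-10), while PAPPA2 rose by 2.08 ± 0.30 (adjusted p = 2.32e-06) and FOXO1 by 1.41 ± 0.36 (adjusted p = 0.00144). The level of PAPPA2 was low, with a mean of 0.316 CPM in Sen (IR), 1.30 in Sen (IR) + CCCP and at most 3.06 in the treated groups. FOXO1 was at 0.311 and 0.831 CPM in Sen (IR) and Sen (IR) + CCCP. PAPPA, at 207 CPM in Sen (IR) + CCCP, fell by 0.25 ± 0.06 (edgeR adjusted p = 0.00132), beside the 4.12-fold lower level of its substrate IGFBP4. Acetate called 9 higher and 6 lower (28.8% and 28.3% of all genes). It raised STC1, the other pappalysin inhibitor, by 1.29 ± 0.07 (adjusted p = 2.29e-12), and it lowered ADAM12 by 1.22 ± 0.11 (adjusted p = 3.33e-09) and PAPPA by 0.58 ± 0.06 (adjusted p = 5.43e-08). With mtDNA 7 were higher and 1 lower (10.7% and 7.40% of all genes). PAPPA2 rose by 0.86 ± 0.21 (adjusted p = 0.00673), the binding protein IGFBP1 by 0.74 ± 0.15 (adjusted p = 0.00103), and ADAM12 fell by 0.33 ± 0.10 (adjusted p = 0.031), a call lost in 4 of the 6 fits that left out 1 library. With both, 13 were higher and 5 lower (30.3% and 31.4% of all genes), and STC1 (1.39 ± 0.07, adjusted p = 5.56e-13), PAPPA2 (1.20 ± 0.21, adjusted p = 3.56e-05), ADAM12 (−1.06 ± 0.11, adjusted p = 3.72e-08) and PAPPA (−0.33 ± 0.06, adjusted p = 8.43e-05) had the largest changes in each direction. Over acetate alone, both called 7 higher and 1 lower (6.57% and 6.0% of all genes), STC2 (0.33 ± 0.06, adjusted p = 0.00157) and GRB10, an adaptor that inhibits the receptor (0.31 ± 0.07, adjusted p = 0.00413), being the most raised, while HTRA1 (−0.23 ± 0.07, adjusted p = 0.045) lost its call in 5 of the 6 fits that left out 1 library. Over mtDNA alone, 10 were higher and 8 lower (27.4% and 29.9% of all genes). STC1 (0.97 ± 0.07, adjusted p = 2.47e-10) rose most, and IGFBP1 (−0.89 ± 0.15, adjusted p = 3.42e-05) and ADAM12 (−0.73 ± 0.12, adjusted p = 1.52e-05) fell most. The interaction was called for 2, IGFBP1 (−0.96 ± 0.21, edgeR adjusted p = 0.0347) and GRB10 (−0.43 ± 0.09, adjusted p = 0.0322). These calls were lost in 9 and 8 of the 12 fits that left out 1 library, and in some of the other alternatives.

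**Figure D5:**
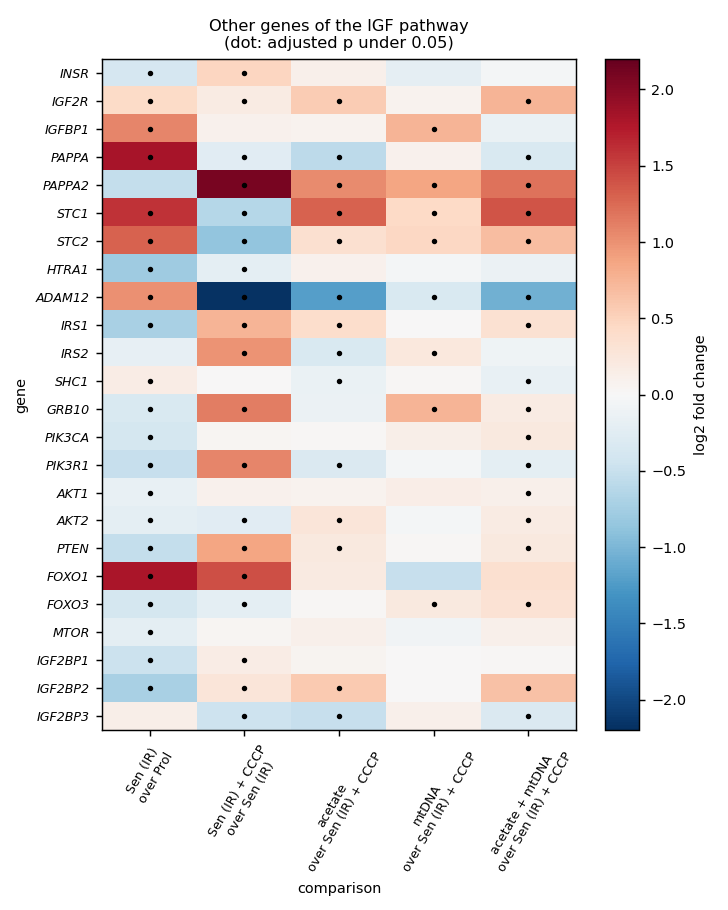
Log2 fold changes of 24 of the 25 other genes of the IGF pathway (rows) in 5 comparisons (columns), red for higher and blue for lower; a dot marks an adjusted p under 0.05. PAPPA, STC1 and STC2 are red in the senescence column, and ADAM12 is blue in every column after it.

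The genes with the profile most like each IGF gene were found by Pearson's r of log2 CPM over the 18 libraries, as a description, since libraries of one group share their treatment. They were KDELR3 (r = 0.997), CALR (0.993) and GYS1 (0.990) for IGFBP3, SLC1A1 (0.991), EXT1 (0.991) and LRRC17 (0.990) for IGFBP4, and ITGB3 (0.990), CALD1 (0.988) and PSG5 (0.987) for IGFBP5. PSG5 belongs to a family of near-identical genes between which reads may be split. For IGFBP7 they were TMEM132A (0.986), ITGB1 (0.980) and EXTL2 (0.979), and for IGFBP6 KHDRBS1 (0.985), SDC1 (0.982) and SMARCB1 (0.978). For IGF2 they were ZNF395 (0.965), ZNF300 (0.963) and TADA3 (0.957), and for IGF1R VCAN (0.972), PPP1CC (0.967) and NCOR1 (0.967). The nearest gene to IGFBP2 reached only 0.824 (TMEM171), followed by AL031775.1 (0.774) and FN3K (0.766).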

How the data were processed

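Paired reads were trimmed by the authors (Trimmomatic 0.36) and aligned with STAR 2.5.2b to GRCh38. The authors deposited raw counts of uniquely mapped reads per gene from featureCounts (Subread 1.5.2), which are not normalized, and a second deposited table holds their TPM. The methods state strand-aware counting for stranded libraries, without saying whether these were. Each of 18 libraries was assigned by its label, and 0 columns were left without a sample.

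edgeR 4.0.16 in R 4.3.3 fitted 6 group means to all 18 libraries (quasi-likelihood test, TMM, filterByExpr, no block), with adjustment over 16994 genes; SE is the log2 change over the square root of F, and intervals are 95%. Library totals were 24624886 to 46224280 counts, 485 genes of 57500 had no symbol, and floors cover counting error only. The pathway list holds receptors, carriers, proteases, their inhibitors, signalling genes and mRNA-binding proteins of IGF2. From it, the 2 called genes that rose most and the 2 that fell most in each comparison are named, except for 1 gene of the list that enters the counts and is not reported here. The IGF genes and all lists were chosen with earlier results of these data known.

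Alternatives were DESeq2 1.42.0 (size factors, Wald test, and nominal p under 0.05 with an absolute log2 change over 0.5), no filter, at least 10 counts in every library, genes of mtDNA left out, a fit to the compared groups alone, a block for the replicate number, limma 3.58.1 on log2(TPM + 1) and log2(TPM + 0.1), and each library left out. The procedure was tested on simulated data. Coordinates are from GENCODE 44.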

Additional observations from a re-analysis of the deposited data

Results flagged for a closer look

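Of the IGF genes and the pathway list, 2 genes had a change with acetate that differed between cells with and without mtDNA in edgeR's test of the interaction, where 0.659% of all genes tested were called. For IGFBP1, a binding protein of low level here, the log2 change with acetate was 0.08 ± 0.15 (SE) without mtDNA and −0.89 ± 0.15 with it, a difference of −0.96 ± 0.21 (adjusted p = 0.0347); TPM was 7.69 ± 0.847 (SD, n = 3) in Sen (IR) + CCCP, 7.49 ± 1.02 with acetate, 12.2 ± 0.459 with mtDNA and 6.31 ± 1.12 with both. The call was lost in 9 of 12 fits that left out 1 library, with values from −1.07 to −0.86. It was also lost with DESeq2's size factors in edgeR (adjusted p = 0.0503) and in a fit of the compared groups alone (edgeR adjusted p = 0.0622). In limma on log2(TPM + 0.1) it was lost too (adjusted p = 0.0572). For GRB10, an adaptor that binds the insulin and IGF receptors, the change was −0.13 ± 0.07 without and −0.56 ± 0.07 with mtDNA. The difference was −0.43 ± 0.09 (edgeR adjusted p = 0.0322), and the call was lost in 8 of 12 such fits, with values from −0.48 to −0.40. With DESeq2's size factors in edgeR the GRB10 call was lost (adjusted p = 0.0587). Limma on log2(TPM + 1) (adjusted p = 0.13) and on log2(TPM + 0.1) (adjusted p = 0.155) did not call it either.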

How the results depend on the processing

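Counts of called IGF genes stayed within 1.5 times the reported number in every alternative for Sen (IR) over Prol, Sen (IR) + CCCP over Sen (IR) and both treatments over Sen (IR) + CCCP. For acetate the reported 3 became 5 with no filter, 6 with only the groups compared and 6 without the 2 libraries that stood apart, an alternative chosen after seeing the data. For mtDNA the 1 became 0 under DESeq2 with the nominal p and fold rule, 3 with no filter, 4 with only the groups compared and 4 without those 2 libraries. For both over acetate the 1 became 0 under the DESeq2 rule, 2 with no filter, 0 with only the groups compared and 0 in limma on either TPM scale; for both over mtDNA the 3 became 6, and for the interaction the 0 became 2, without the 2 libraries, and 2 with no filter. Leaving out 1 library gave 5 to 7 calls for Sen (IR) over Prol, 7 to 8 for CCCP, 3 to 4 for acetate, 1 for mtDNA, 3 to 4 for acetate + mtDNA over Sen (IR) + CCCP, 0 to 1 over acetate and 3 to 5 over mtDNA, and 0 for the interaction. The causes were not tested. Numbers did not pair the libraries (45 same-number pairs, r from −0.082 to 0.092, and 8 of 18 libraries closest to their own number), and with the replicate block IGFBP4 for both over Sen (IR) + CCCP was lost (0.20, adjusted p = 0.0539) and IGFBP3 for both over mtDNA was gained (0.27, adjusted p = 0.0408); the other calls of the 8 genes kept their side.

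Signs turned only for changes that were not called. On TPM these were IGF2 with acetate (−0.05), IGF1R with both (−0.05), IGFBP4 for both over acetate (−0.01), IGF2 for both over mtDNA (−0.03), IGF1R in the interaction (0.02) and, at log2(TPM + 0.1), IGFBP2 with both (−0.03). Under DESeq2's size factors and tests they were IGFBP4 for both over mtDNA (0.00) and IGF1R in the interaction (0.01). Without the 2 libraries they were, with both, IGFBP2 (−0.89), IGFBP3 (−0.06) and IGF2 (0.05), and for both over acetate IGFBP4 (−0.08) and IGF2 (0.00). When 1 library was left out, sign changes gave ranges of −0.03 to 0.01 for IGFBP5 and −0.04 to 0.03 for IGF1R with mtDNA; with both, −0.88 to 0.94 for IGFBP2, −0.05 to 0.30 for IGFBP3 and −0.15 to 0.06 for IGF2; over acetate, −1.37 to 0.44 for IGFBP2, −0.08 to 0.10 for IGFBP4 and −0.22 to 0.00 for IGF2; over mtDNA, −1.80 to 0.01 for IGFBP2, −0.12 to 0.06 for IGFBP4 and −0.03 to 0.19 for IGF2; and in the interaction, −0.09 to 0.14 for IGF2 and −0.06 to 0.01 for IGF1R. Calls gained this way were IGFBP4 with acetate (0.26, without acetate replicate 2), IGF1R with acetate (0.16 and 0.14, without Sen (IR) + CCCP replicate 2 or acetate replicate 3) and with both (0.14, without Sen (IR) + CCCP replicate 2), and over mtDNA IGFBP2 (−1.80) and IGF2 (0.19), without acetate + mtDNA replicate 2, and IGFBP3 (0.39 to 0.42, without mtDNA replicate 2 or acetate + mtDNA replicate 1 or 3).

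Over all genes the DESeq2 rule called 5221 for Sen (IR) over Prol (reported 9628), 7015 for CCCP (11088), 5287 with acetate (9709), 1622 with mtDNA (3071), 6138 with the combination (10487), 1221 for the combination over acetate (2136, with 1241 to 1882 when 1 library was left out, lowest without acetate replicate 2, then 3) and 5478 over mtDNA (9748), and 553 for the interaction (112, with 55 to 403 when 1 library was left out, 273 under DESeq2's Wald test, 413 with no filter and 820 without the 2 libraries).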
